A study of Mus musculus with 4 samples.

Results

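The ETS family gene loci are the genes of 8 ETS transcription factors (Ets1, Fli1, Elf1, Elf4, Gabpa, Etv6, Spi1 and Spib) with 20 kb on each side, in the open chromatin of mouse lymph node Treg cells. Every ATAC-seq peak in the 4 deposited peak lists that overlapped one of these windows was taken, together with the peaks in the stretch between the neighbouring genes Ets1 and Fli1. Peaks of different libraries that shared at least 1 bp were merged, which gave 171 regions at these loci out of 272233 merged regions in the genome. The gene models were those of GENCODE M21 on GRCm38/mm10, and a start below means the first base of a transcript in its basic set. The cells were Foxp3+ CD4+ Treg cells, enriched by negative selection and sorted for the RFP reporter from the lymph nodes of naive female Foxp3 Rfp/Rfp mice aged 6 to 8 weeks on the C57BL/6 background, and 50000 cells went into each library. The 2 genotypes were WT and Il2ra mut/mut, with 2 biological replicates each. Il2ra mut/mut mice carry a point mutation in CD25, the alpha chain of the IL-2 receptor, which lowers CD25 at the cell surface and with it the IL-2 signal. The mutation arose in a Ccr2-/- colony, and the Il2ra mut/mut line was then bred from Ccr2+/+ offspring. The mutation is in every cell of the animal, so the mice also differ in cells other than Treg cells. A peak list does not show the mutated base, so the genotypes rest on the labels.

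ETS factors share a DNA-binding domain that reads a core of GGAA with its flanking bases, and they act as activators or repressors of transcription. Ets1, Fli1, Elf1, Elf4 and Gabpa are known for roles in T cell development, survival and quiescence, and Ets1 is known to be needed for normal Treg cells. Etv6 is a repressor needed by blood stem cells, while Spi1 (PU.1) directs myeloid and early B cell development and is shut down in T cells, and its relative Spib is known from B cells and plasmacytoid dendritic cells.

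The sequences below are shown because the account of each locus returns to them. They are 150 bases of the GRCm38 plus strand around the highest summit of a region, in lower case. The capitals mark any match, on either strand, to the words CCGGAAGT (ETS), GAGGAAGT (the SPI subfamily, to which Spi1 and Spib belong), TTCNNNGAA (STAT, the factors that IL-2 activates) and TGTGGTT (RUNX). The first 4 lie at Ets1 or beside it and stand for the highest region away from starts, a region with an ETS word, a region with 2 STAT words and a region with 2 SPI words.
Ets1 upstream, chr9:32616003-32616152: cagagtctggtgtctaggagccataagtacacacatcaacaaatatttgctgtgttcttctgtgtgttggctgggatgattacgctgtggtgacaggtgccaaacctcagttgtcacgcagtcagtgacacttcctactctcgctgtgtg
Ets1 intron 6, chr9:32747729-32747878: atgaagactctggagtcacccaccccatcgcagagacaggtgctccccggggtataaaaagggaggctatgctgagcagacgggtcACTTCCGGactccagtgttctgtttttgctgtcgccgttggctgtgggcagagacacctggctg
Ets1 intron 1, chr9:32723113-32723262: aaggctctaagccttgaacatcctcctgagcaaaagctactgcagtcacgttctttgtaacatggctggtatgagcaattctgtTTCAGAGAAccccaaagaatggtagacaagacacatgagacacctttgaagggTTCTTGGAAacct
Between Ets1 and Fli1, chr9:32570767-32570916: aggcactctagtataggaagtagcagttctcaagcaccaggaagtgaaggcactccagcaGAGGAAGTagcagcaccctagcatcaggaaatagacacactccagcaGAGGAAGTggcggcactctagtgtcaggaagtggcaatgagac
The next 4 are the highest regions away from starts at Elf1 and Elf4, and 1 region each from Etv6 and Spi1, among those that ranked higher in both Il2ra mut/mut libraries.
Elf1 intron 2, chr14:79537579-79537728: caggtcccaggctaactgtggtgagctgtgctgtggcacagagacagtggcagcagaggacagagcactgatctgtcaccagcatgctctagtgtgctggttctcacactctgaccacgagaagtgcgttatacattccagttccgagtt
Elf4 intron 1, chrX:48433691-48433840: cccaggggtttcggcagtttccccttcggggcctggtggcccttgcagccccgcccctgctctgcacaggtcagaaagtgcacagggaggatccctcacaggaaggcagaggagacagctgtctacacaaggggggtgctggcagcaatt
Etv6 intron 2, chr6:134067628-134067777: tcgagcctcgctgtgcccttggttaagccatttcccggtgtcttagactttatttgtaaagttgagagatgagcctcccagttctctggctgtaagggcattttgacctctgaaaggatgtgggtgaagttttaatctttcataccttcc
Spi1 intron 2, chr2:91101499-91101648: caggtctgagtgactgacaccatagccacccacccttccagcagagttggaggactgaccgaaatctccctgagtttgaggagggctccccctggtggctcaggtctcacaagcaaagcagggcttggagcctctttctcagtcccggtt
The last 2 are stretches of 30 bases at the Gabpa and Fli1 starts, with the ETS word and the SPI word in capitals.
Gabpa start, chr16:84834847-84834876: gccaccgttctACTTCCGGccctggctccg
Fli1 start, chr9:32541451-32541480: ttgcgatcgggGAGGAAGTcctatctctct

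The lists held 112569 and 126761 peaks for WT replicates 1 and 2 and 122776 and 142732 for Il2ra mut/mut replicates 1 and 2, and values of the 4 libraries are given in that order from here on. The files give for each peak a fold enrichment over background (column 7) and a -log10 p (column 8). Both are read here as the percentile of column 8 among all peaks of the same library, and as the number of reads stacked at the summit. That number follows from column 7 with 1 background level per library, and came out whole for 100% of peaks (tolerance 0.02 of a read). The median peak had 8, 8, 10 and 8 reads, and low peaks moved far in rank with few reads: in WT replicate 1, 6 reads at the Etv6 region chr6:134189710-134190288 were at percentile 7.92, and 8 reads at its region chr6:134047928-134048548 at 47.8. Summit reads were not scaled for depth, which is unknown, and are compared only within a library.

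WT replicate 2 stood apart at the ETS loci. This library had a peak in 149 of the 171 regions (87.1%), against 107, 99 and 114 in the other libraries (62.6%, 57.9% and 66.7%). Over all merged regions its share was 44.3%, within the range of 38.8% to 49.4% for the other 3. Of the 46 regions called in 1 library alone, 31 were called in WT replicate 2 (67.4%), against 24.4% over the genome. The part of depth and of peak number in this was not tested. All 8 Treg and CD4 T cell markers, Foxp3, Il2ra and Ctla4 among them, had a peak over a start in all 4 libraries. None of 6 B cell markers and none of 8 myeloid and dendritic markers did. Cd79b had one in 2 libraries. A merged region over a Zbtb46 start was called in 3, in 1 of them with the peak itself over the start, while Pax5, Csf1r and Lyz2 had none. Of 4 CD8 T and NK markers, Cd8b1 had a peak in all 4 libraries and the others had none.

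Ets1 held more called regions than any other member. Of the 171 regions, 60 were in its window, 24 at Fli1, 11 between the pair, 26 at Elf1, 24 at Etv6, 13 at Elf4, 6 at Spi1, 4 at Spib and 3 at Gabpa. In all 4 libraries 78 were called (45.6%), against 14.1% of all merged regions and 19.1% of those within 20 kb of a protein-coding gene. These 78 were 27 at Ets1, 13 at Fli1, 7 between them, 11 at Elf1, 6 at Elf4, 5 at Etv6, 5 at Spi1, 2 at Gabpa and 2 at Spib. Etv6 had the lowest share of its regions in all 4 libraries (20.8%), and at the other windows the share ran from 42.3% at Elf1 to 83.3% at Spi1. By place, 46 of the 78 lay in introns, 11 overlapped a start of some gene, 12 lay outside the genes, 7 lay in part of a gene record that the longest transcript does not span, and 2 overlapped an exon away from starts.

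**Figure D1:**
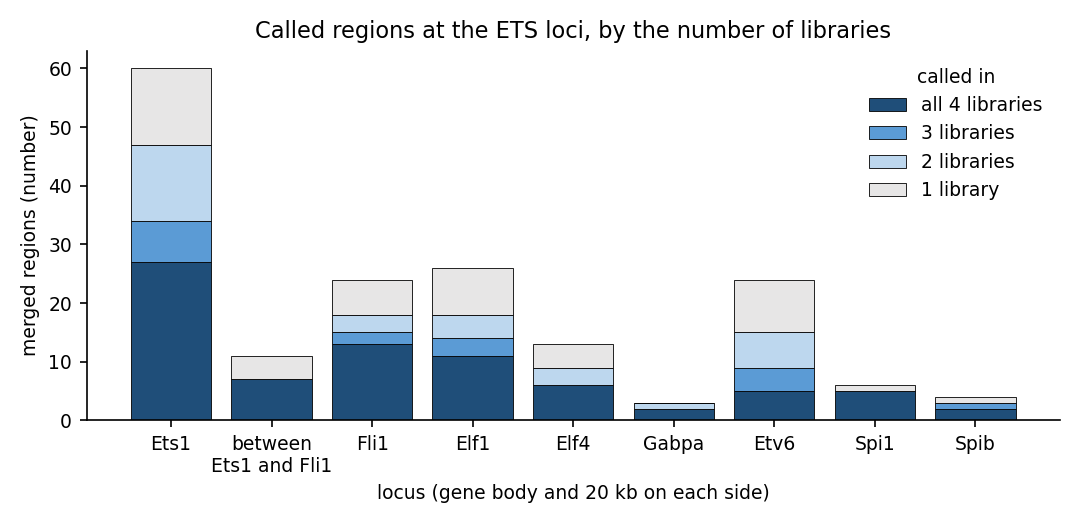
Bars give the number of merged regions at each locus (gene body and 20 kb on each side), stacked by how many of the 4 libraries called the region. Ets1 has 60 regions with 27 called in all 4 libraries, and Etv6 has 24 with 5 in all 4.

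The same count was made for all 21938 protein-coding genes. Ets1, with 27 regions called in all 4 libraries, was at rank 41, and its density of 16.7 per 100 kb was at percentile 99.0 of all genes. Fli1 had 8.09 per 100 kb (percentile 89.5), Elf1 7.78 (88.7), Spi1 6.82 (85.2), Elf4 6.52 (83.7), Spib 4.34 (71.6), Gabpa 2.9 (58.9) and Etv6 1.82 (44.1), against a median of 2.16 over all genes. Since short windows reach a high density with a single promoter, the same was read among the 4235 windows of at least 100 kb, where the median was 1.40. There the percentiles of the 4 members with windows of that size were 99.4 for Ets1, 96.7 for Fli1, 96.3 for Elf1 and 60.01 for Etv6. The windows of Spi1, Spib and Elf1 also held promoters of neighbours, given below.

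**Figure D2:**
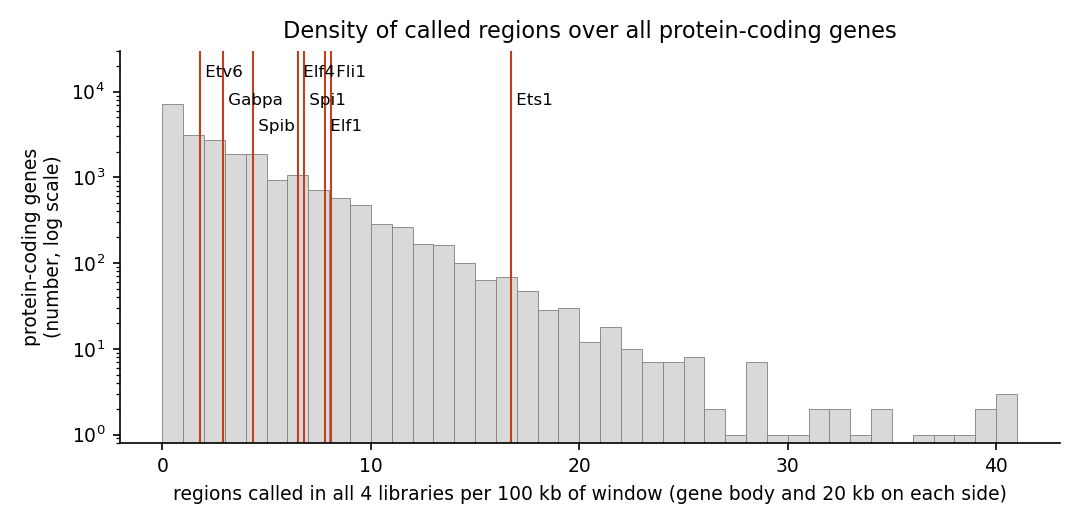
Grey bars count protein-coding genes (log axis) by the number of regions called in all 4 libraries per 100 kb of their window, and red lines mark the 8 members. Ets1 is at 16.7 per 100 kb, the other members between 1.82 and 8.09.

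Ets1 encodes a factor abundant in resting T cells. Its 4 basic starts lay in 1 region, chr9:32695476-32697139, at exon 1. The summit had 47, 103, 84 and 88 reads, a fold enrichment of 24.3, 52.5, 38.1 and 43.3, and percentiles of 95.6, 98.2, 97.6 and 98.3. WT replicate 1 was the lowest library and WT replicate 2 among the highest, so the genotypes overlapped. The highest region away from starts lay upstream at chr9:32615687-32617049, 78973 bp from the nearest Ets1 start, with 56, 93, 56 and 64 reads and percentiles of 96.7, 97.8, 95.3 and 97.0. It carries none of the words in its 300 bases. Next was chr9:32740531-32741662 in intron 6, with percentiles of 96.2, 96.7, 95.1 and 95.8. Both ranked near the start in each library, and both ranked above it in WT replicate 1.

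Intron 6 of Ets1 also held the widest region of the set, chr9:32743618-32746746, which spanned 3129 bp with percentiles of 95.5, 93.6, 93.8 and 94.9. Its neighbour chr9:32747287-32748162 carries the ETS word on the minus strand 15 bp from the summit, with percentiles of 90.4, 90.5, 91.3 and 91.5, and was named after its word was seen. It and the Gabpa start were the only 2 of the 171 regions with that word in the 300 bases around the summit, and 3 regions held it when the whole region was searched. Regions called in all 4 libraries covered 29.1 kb, or 18.0% of the Ets1 window of 161.6 kb. Intron 1 also held small regions that some libraries did not call, such as chr9:32717178-32717771 with no peak in WT replicate 1 and 13, 11 and 8 reads in the others.

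Upstream of the starts, inside the GENCODE record of Ets1 but outside its longest transcript, chr9:32660137-32662131 had the widest gap at this locus between the lower Il2ra mut/mut library and the higher WT library. Its reads were 17, 34, 53 and 34, with percentiles of 85.1, 90.5, 94.9 and 93.0. The region carries a RUNX word 11 bp and a STAT word 126 bp from its summit. The higher WT library lay 2.52 points below the lower Il2ra mut/mut library, while the replicates of 1 genotype differed by up to 5.38 points. The opposite order was seen upstream at chr9:32650766-32651193, with 10, 12, 10 and 9 reads and percentiles of 70.7, 74.5, 55.5 and 62.3. This was the widest gap in favour of WT at Ets1, 8.35 points, and the replicates of 1 genotype differed by up to 6.87. The next widest was in intron 1 at chr9:32722840-32723398, which has STAT words 13 and 66 bp from its summit. There the reads were 18, 46, 17 and 11, and the percentiles were 86.0, 93.2, 83.0 and 76.5. The gap between the nearest libraries of the 2 genotypes was 2.94 points, and the replicates of 1 genotype differed by up to 7.27.

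**Figure D3:**
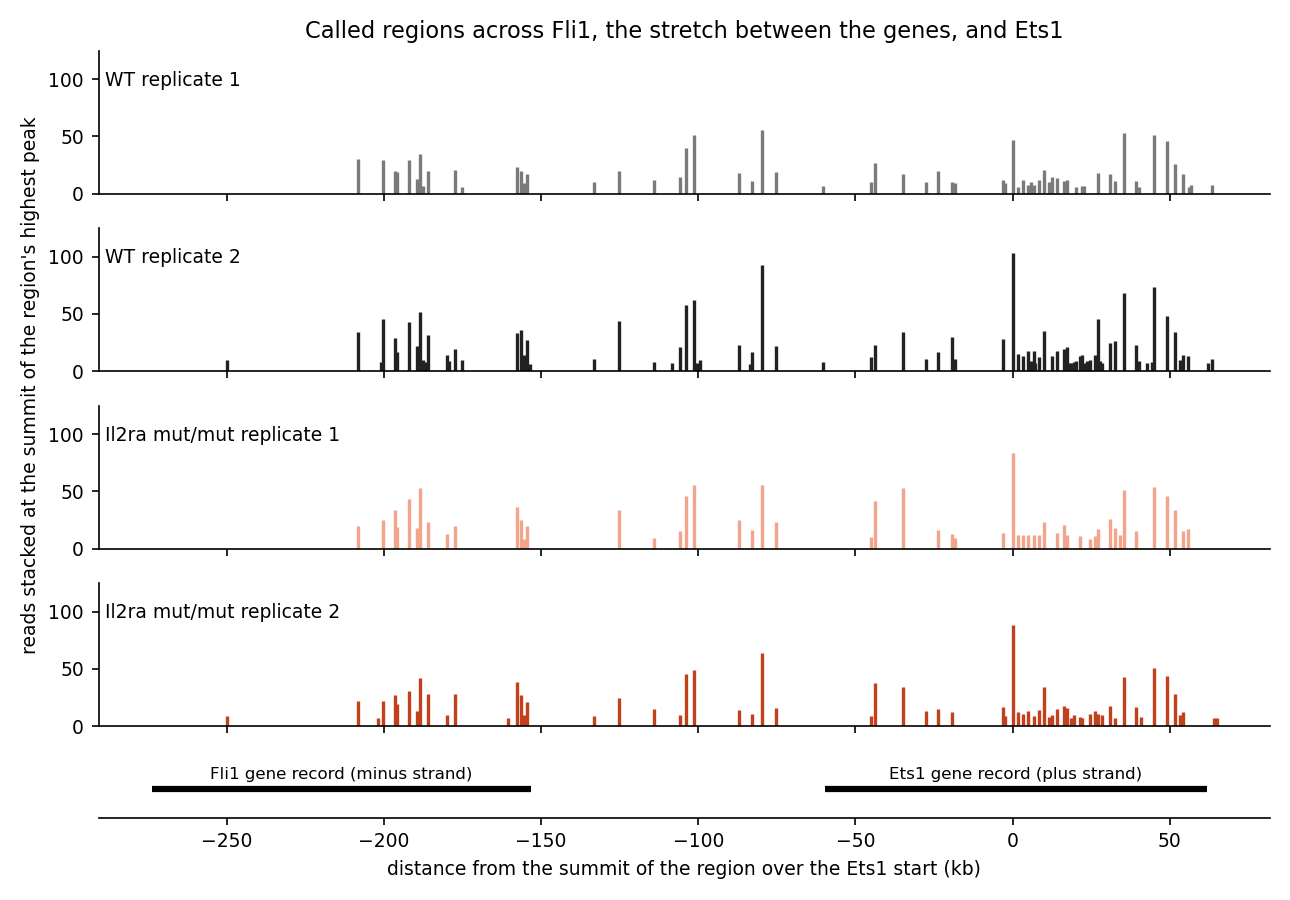
Each line is a called region, at its distance in kb from the summit over the Ets1 start, with the height giving the reads at the summit of the library's highest peak there (not scaled between libraries). Strong regions recur in all 4 libraries at the Ets1 start, upstream of it, in intron 6 of Ets1 and in the 5' part of Fli1. WT replicate 2 adds many small ones.

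Ets1 and Fli1 lie head to head with 93.4 kb between their gene records. Of the 11 regions more than 20 kb from both, 7 were called in all 4 libraries and the other 4 in WT replicate 2 alone, with at most 10 reads. The highest was chr9:32594198-32594904, 101118 bp upstream of the nearest Ets1 start, with 51, 62, 56 and 49 reads and percentiles of 96.2, 95.5, 95.3 and 95.5. Close to it, chr9:32591645-32592551 had percentiles of 94.4, 95.1, 93.8 and 95.1. On the Fli1 side, chr9:32570475-32571069 had 20, 44, 34 and 25 reads, and it carries the SPI word at 2 places 11 and 36 bp from its summit. The region over the start of Gm47680, a gene of the GENCODE set, had percentiles of 75.3, 82.1, 81.9 and 76.5. The remaining regions called in all 4 libraries were chr9:32581831-32582208 (percentiles 78.2, 43.8, 39.1 and 84.5), chr9:32589860-32590343 (83.2, 85.1, 80.6 and 71.4) and chr9:32608745-32609397 (86.0, 86.3, 88.3 and 83.3). Only at chr9:32589860-32590343 and chr9:32594198-32594904 did both WT libraries rank above both Il2ra mut/mut libraries, and none of the 7 showed the reverse. At the second of these the gap was 0.001 of a point.

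Fli1, a factor of blood and endothelial cells, had a start region of middling height. At chr9:32541157-32541740 the summit had 17, 27, 20 and 21 reads, a fold enrichment of 9.12, 14.1, 9.42 and 10.7, and percentiles of 85.1, 88.2, 85.6 and 88.8. The peak of WT replicate 1 in this region stopped short of the annotated first base. Higher regions followed in intron 1, led by chr9:32506836-32507920 with 35, 52, 53 and 42 reads (percentiles 93.3, 94.2, 94.9 and 94.5), 493 bp from the start of Gm27201. By the rule for regions over 1 kb from any start, chr9:32503692-32504505 led with percentiles of 91.5, 92.6, 93.3 and 92.3. Next was chr9:32495433-32496262 with 91.5, 93.2, 88.3 and 89.3. The latter was among the 5 regions with the widest gap in favour of WT, at 2.28 points, and its replicates differed by up to 1.69.

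Elf1, which acts with Elf4 in keeping T cells quiescent, had regions over starts at 2 places. The outer one, chr14:79480695-79482134, is shared with the divergent gene Wbp4, so its reads cannot be told apart between the genes, and had 30, 37, 37 and 37 reads. The inner one, chr14:79515332-79515939, belongs to Elf1 alone and had 31, 46, 42 and 40 reads with percentiles of 92.2, 93.2, 93.1 and 94.2. Both stood below an intronic region. In intron 2, chr14:79537309-79537891, 21623 bp downstream of the inner start, had 46, 103, 72 and 69 reads and percentiles of 95.5, 98.2, 96.8 and 97.3. Next was chr14:79529881-79530757 in intron 1 with 93.0, 92.6, 93.1 and 94.5. The highest region of the window, chr14:79587038-79588067, was the promoter of the neighbour Sugt1, with percentiles of 97.7, 98.7, 97.7 and 97.8.

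Elf4, on the X chromosome, was open at the inner of its 2 starts. The region chrX:48453565-48454770 had 25, 39, 35 and 47 reads, a fold enrichment of 13.2, 20.2, 16.1 and 23.3, and percentiles of 90.0, 91.8, 91.6 and 95.3. At the outer start the nearest region ended 38 bp short of the annotated base and was called in WT replicate 2 (12 reads) and Il2ra mut/mut replicate 2 (8 reads) alone. As at Elf1, an intronic region was higher: chrX:48433261-48434014 in intron 1, with 32, 63, 60 and 53 reads and percentiles of 92.5, 95.7, 95.8 and 96.0. Next was chrX:48424383-48425019 with 86.7, 93.0, 92.7 and 93.7. At both, WT replicate 1 was the low library and the other 3 lay close together.

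Gabpa, the DNA-binding subunit of GABP, had the highest start of the 8 members and few other regions. Its region, chr16:84834391-84836222, is shared with the divergent gene Atp5j, which encodes a subunit of ATP synthase, so the reads cannot be assigned to one gene. It had 80, 114, 128 and 109 reads, a fold enrichment of 41.0, 58.1, 57.9 and 53.5, and percentiles of 98.4, 98.6, 99.1 and 99.0. Both Il2ra mut/mut percentiles exceeded both WT percentiles, by 0.34 points. The window held 2 further regions. At chr16:84824868-84825395, upstream of the gene, the percentiles were 47.8, 88.2, 86.2 and 46.7, so the replicates of each genotype lay far apart, by up to 40.4 points.

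Etv6 spans 234.5 kb and had its start region at chr6:134034709-134036646, with 20, 36, 31 and 25 reads, a fold enrichment of 10.6, 18.7, 14.4 and 12.6, and percentiles of 87.4, 91.1, 90.5 and 90.5. Its 300 bases around the summit hold 1 STAT word. Away from starts, chr6:134147956-134148486 in intron 3 led with 16, 29, 27 and 26 reads and percentiles of 84.2, 88.9, 89.1 and 90.9. In intron 2, chr6:134066945-134067992 had 14, 13, 22 and 22 reads, with percentiles of 81.9, 76.7, 86.8 and 89.3. There the gap between the nearest libraries of the genotypes was 4.88 points, and the replicates of 1 genotype differed by up to 5.19. Of the 5 regions of Etv6 called in all 4 libraries, 4 ranked higher in both Il2ra mut/mut libraries and none in both WT libraries, against 26.2% and 12.6% over the genome, and the median difference was 8.71 points, against 0.65. This median was looked at by locus after the values were seen. It ran from 5.65 to 10.9 when each library was left out in turn, over the 5 to 7 regions then called in all the others. In 4 of the 5 regions (80%, against 76.1% over the genome), the genotype means differed by less than the replicates of 1 genotype did. The widest differences rested on low peaks: at chr6:134189710-134190288 the reads were 6, 9, 11 and 10 and the percentiles 7.92, 57.95, 66.2 and 71.4.

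Spi1 had no called region over its basic start in any library, and none within 1 kb. Its window nevertheless held 5 regions called in all 4 libraries. The highest, chr2:91069825-91070860, was the promoter of the neighbour Slc39a13, a zinc transporter, with percentiles of 98.7, 98.3, 98.8 and 98.8. Upstream of the start, 12492 bp away but inside the gene record, chr2:91082833-91083604 had 18, 26, 32 and 30 reads and percentiles of 86.0, 87.7, 90.7 and 92.1. At a distance of 14864 bp, chr2:91080466-91081232 carries an SPI word 37 bp from its summit and had percentiles of 85.1, 86.8, 81.9 and 85.4. A region farther upstream, chr2:91078217-91078681, had 11, 23, 11 and 8 reads with percentiles of 75.3, 86.3, 66.2 and 46.7, which was the widest gap in favour of WT at the ETS loci (9.10 points). The replicates of 1 genotype differed there by up to 19.5 points. In intron 2, 5317 bp downstream of the start, chr2:91101413-91101819 had 8, 17, 20 and 20 reads and percentiles of 47.8, 82.1, 85.6 and 88.2. WT replicate 2 lay closer to the Il2ra mut/mut libraries there than to WT replicate 1.

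Spib likewise had no called region over or within 1 kb of its start. Its own gene body held 2 regions, both over the last exon. The one at the 3' end, chr7:44525981-44526370, had 16, 11, 19 and 19 reads and percentiles of 84.2, 71.3, 84.8 and 87.7, and the other had no peak in Il2ra mut/mut replicate 1. The highest region of the window, chr7:44548534-44549246, was the promoter of Pold1, a DNA polymerase subunit, at percentiles of 99.4, 99.4, 99.2 and 99.6.

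In all, 6 of the 8 members had a region over a start called in all 4 libraries, the exceptions being Spi1 and Spib. Over 21911 protein-coding genes the share was 49.4%. Of 18 other ETS genes, 10 had such a region: Ets2, Elf2, Etv1, Etv3, Etv4, Etv5, Elk1, Elk3, Elk4 and Erf. None was called at a start of Erg, Fev, Elf3, Elf5, Ehf, Etv2, Spic or Spdef. Within 1 kb of a start, however, Elf3 had a region in all 4 libraries, Erg in 2 and Elf5 in 1. Etv5, a factor downstream of receptor signals, ranked above all members with percentiles of 99.9, 99.9, 99.9 and 99.8, and Elf2 had 99.4, 99.4, 99.6 and 99.6.

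**Figure D4:**
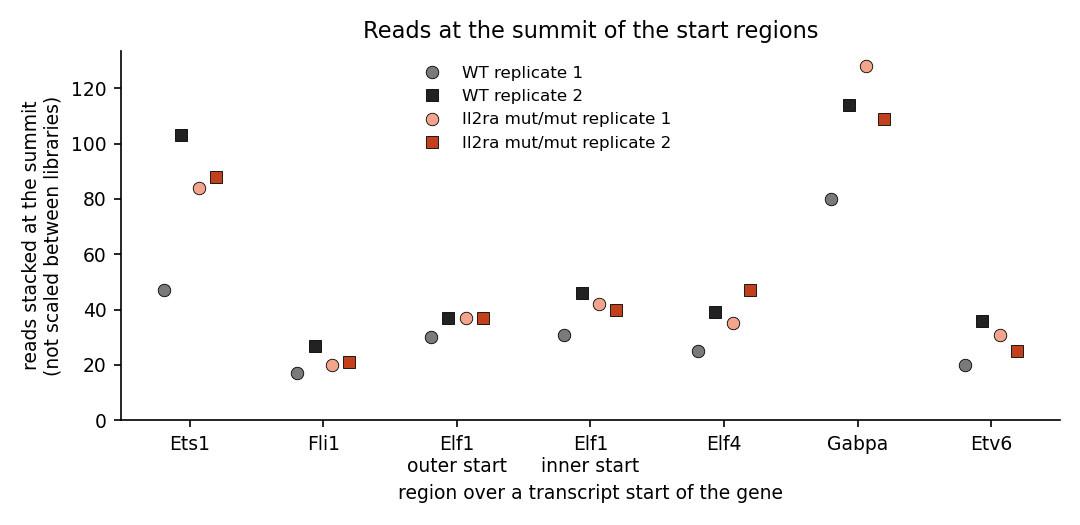
Points give the reads at the summit of each region over a start of a member, 1 point per library, on an axis from 0 and not scaled between libraries. The Gabpa start runs from 80 to 128 reads against 17 to 27 at the Fli1 start.

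The comparison of genotypes asked whether Treg cells with a weak IL-2 signal open these genes differently. With 2 libraries against 2, an exact two-sided permutation test cannot give a p below 0.333, so no test was run and the counts are set beside those over the genome. Both WT libraries and neither Il2ra mut/mut library called 10 of the 171 regions (5.85%), against 2.7% of all merged regions. These were 6 at Ets1, 2 at Fli1, 1 at Elf1 and 1 at Etv6. With the exception of chr6:134247312-134247725 in Etv6, their reads were low, 6 to 10 in WT replicate 1 and 7 to 11 in WT replicate 2. The Etv6 region had 16 and 13 reads. It overlaps an Etv6 start of the comprehensive GENCODE set, which lists more transcripts, but none of the basic set. The 6 at Ets1 started at 32635699, 32701636, 32716147, 32718483, 32735987 and 32758609 of chromosome 9, those at Fli1 at 32508166 and 32520651, and the one at Elf1 at 79521145 of chromosome 14. When only peaks with a -log10 q (the adjusted p) of at least 3 were kept, both WT libraries alone called 3 of 147 regions. The share over the genome was then 1.89%. Of the 152 regions left without WT replicate 2, 17 (11.2%) were called in WT replicate 1 and in neither Il2ra mut/mut library, against 18.0% of all regions. Of the 168 regions left without WT replicate 1, 42 (25.0%) were called in WT replicate 2 and in neither Il2ra mut/mut library, against 20.4%.

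The reverse, both Il2ra mut/mut libraries and neither WT library, held for 3 regions (1.75%), against 3.56% of all merged regions. They were chr6:134225459-134225962 (21 and 6 reads) and chr6:134282099-134282312 (8 and 6) at Etv6, and chrX:48442567-48442936 (11 and 10) at Elf4. The second carries a STAT word 138 bp from its summit. The last lies in intron 1 and carries a RUNX word 13 bp from its summit.

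Among the 78 regions called in all 4 libraries, both WT percentiles exceeded both Il2ra mut/mut percentiles in 11 (14.1%), against 12.6% over the genome. The reverse order held in 22 (28.2%), against 26.2%. The 11 were 5 at Ets1, 2 at Fli1, 2 between them, 1 at Elf1 and 1 at Spi1. The 22 were 4 each at Ets1, Elf1 and Etv6, 3 each at Fli1 and Spi1, 2 at Elf4, 1 at Gabpa and 1 at Spib. Over the 78 regions the mean percentile was higher in Il2ra mut/mut by a median of 0.76 points, against 0.65 points over the genome. With equal numbers of peaks in each library the 2 orders were level at 17 regions each and the median turned to -0.31 points, against 0.02 over the genome. In 59 of the 78 the difference between the genotype means was smaller than the wider of the 2 differences between replicates (75.6%), against 76.1% of regions over the genome.

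**Figure D5:**
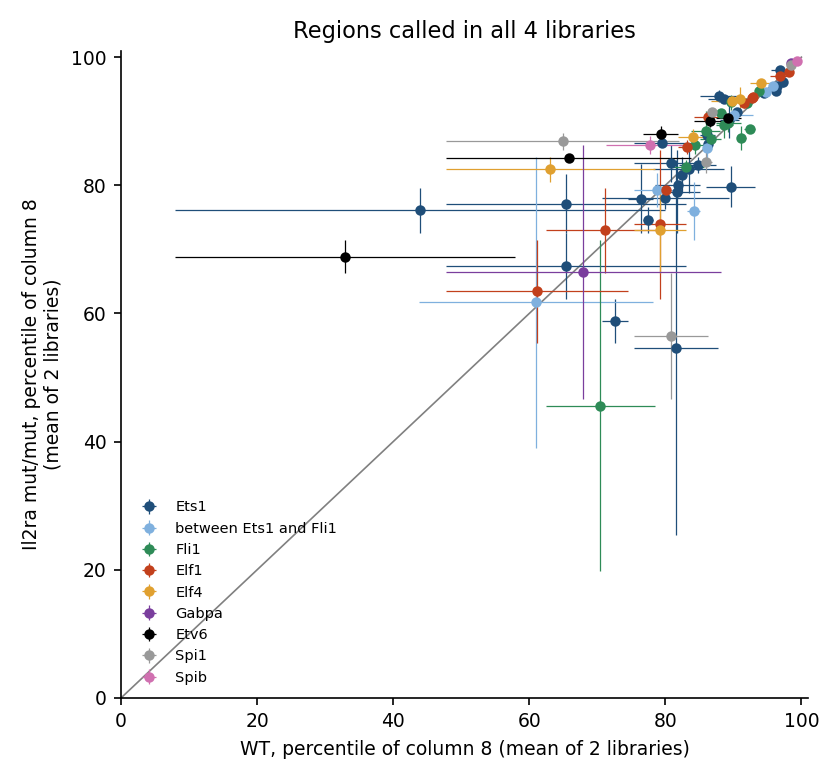
Each point is 1 of the 78 regions called in all 4 libraries, with the mean WT percentile on the horizontal and the mean Il2ra mut/mut percentile on the vertical axis, and bars reach to the 2 replicates. Most points lie near the diagonal above the 80th percentile, and the bars are long where a peak is low.

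The study combined replicates by irreproducible discovery rate (IDR), which keeps peaks whose ranks agree between replicates, and called the result open chromatin regions (OCRs). With the same threshold of 0.05, 72 OCRs lay at the ETS loci. Of these, 55 were common to the genotypes (76.4%, against 71.8% of all OCRs). Another 9 were WT-unique (12.5%, against 14.4%), and 8 were unique to Il2ra mut/mut (11.1%, against 13.8%). Of the 17 unique OCRs, 15 lay in regions called in all 4 libraries. The others were both in Etv6. The Il2ra mut/mut-unique OCR in intron 3 at chr6:134207772-134208231 also had a peak of 8 reads in WT replicate 2, and the WT-unique OCR in intron 5 at chr6:134247312-134247725 had no Il2ra mut/mut peak. All 12 OCRs at Fli1 were common. At Ets1, 19 were common and 3 were unique to each genotype. At Etv6, 3 were common, 1 was found in WT alone and 2 in Il2ra mut/mut alone.

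Short sequence words were counted last. In windows of 300 bp around the summit, 2 of the 78 regions called in all 4 libraries held the ETS word (2.56%), against 3.4% of all regions called in all 4 libraries. The SPI word was in 7 (8.97%, against 4.89%), 3 of them at Fli1 and the others at Gabpa, Spi1, Ets1 and between Ets1 and Fli1. The STAT word was in 7 (8.97%, against 8.77%) and the RUNX word in 6 (7.69%, against 10.1%). ETS and SPI words share the letters GGAAGT but no match counts as both, and the STAT word reads the same on both strands. Of the 7 regions over a start of a member, the ETS word was found at Gabpa alone, on the minus strand 79 bp from the summit.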

How the data were processed

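ATAC-seq peak lists of 4 libraries were used, 2 per genotype, grouped by the labels. Per the methods and the labels, the authors trimmed reads (Trim Galore 0.3.7), aligned them to mm10 with BWA 0.7.13, handled alignments with SAMtools 0.1.19 and Picard 1.92, removed duplicates and mitochondrial reads, kept concordant pairs, shifted read 1 and called narrow peaks in each replicate with MACS2 2.1.0. The deposited columns hold the fold enrichment (a ratio, column 7), the -log10 p (column 8), the -log10 q (used in an alternative) and an unused score. Depth is not given in the sources used here, and the lists hold called peaks only, so a missing peak does not mean closed chromatin.

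Peaks were merged on an overlap of 1 bp, and a library with several peaks in a region was represented by its highest. Percentiles were ranks of column 8 within a library, with ties at their mean rank. Columns 7 and 8 rank peaks alike. IDR was refitted on column 8 and its tied ranks were split by a seeded draw. The ranking measure of the study is not given in the sources used here. Scripts used Python 3.11.15, numpy 2.4.6, pandas 2.3.3 and scipy 1.17.1 and were tested on simulated data, where 16 of 16 checks returned what was set. Sequences came from RefSeq's GRCm38.p6, whose chromosomes no peak overran.

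Members and lists were chosen with earlier results of these data known. Regions were named by rule: those over a start of a member, the 2 highest per locus over 1 kb from any start (by the lowest percentile of the 4 libraries), those called in both libraries of 1 genotype alone, the 5 with the widest gap in each direction, and those between Ets1 and Fli1. Alternatives changed the flank, the -log10 q minimum, the peak number, the merging, the ranking, the IDR settings, the starts and the word window, and left out each library.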

Additional observations from a re-analysis of the deposited data

How the results depend on the processing

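Counts of regions at the loci (147 to 186) and of regions called in all 4 libraries (75 to 87) stayed within 1.5 times of 171 and 78 under the alternatives run for them. The genotype counts did not. With only peaks of -log10 q of at least 3, regions called in both WT libraries alone were 3 (1.89% over the genome), those called in both Il2ra mut/mut libraries alone 1 (4.22%), those ranked higher in WT 3 (5.19%) and those ranked higher in Il2ra mut/mut 34 (44.1%), and the median difference was 3.60 points (2.98). When each library gave the same number of peaks, 1 region was called in Il2ra mut/mut alone (2.96%), 17 ranked higher in WT (20.2%), 17 ranked higher in Il2ra mut/mut (19.9%), and the median difference was -0.31 (0.02). Ranks from the top in those lists gave 17, 17 and -0.31 again. Leaving out each library in turn gave 14 to 42 regions called in WT alone, with the share at the loci against the genome in parentheses. There were 42 without WT replicate 1 (25.0%, against 20.4%), 17 without WT replicate 2 (11.2%, against 18.0%) and 17 without Il2ra mut/mut replicate 2 (10.4%, against 6.09%). The same step gave 3 to 11 called in Il2ra mut/mut alone. There were 11 without Il2ra mut/mut replicate 1 (6.51%, against 27.1%), 9 without WT replicate 2 (5.92%, against 7.42%) and 6 without Il2ra mut/mut replicate 2 (3.68%, against 22.6%). Of the regions called in all the libraries kept, 14 to 32 ranked higher in WT. These were 25 without Il2ra mut/mut replicate 2 (30.5%, against 33.5%), 32 without WT replicate 1 (38.1%, against 29.7%) and 20 without Il2ra mut/mut replicate 1 (23.5%, against 23.2%). In the same regions, 28 to 49 ranked higher in Il2ra mut/mut, with 49 without WT replicate 2 (59.0%, against 46.7%) and 42 without Il2ra mut/mut replicate 1 (49.4%, against 49.0%). Medians ran from -0.51 (without WT replicate 1) to 1.70. A single library then stands for a genotype, so an order is met more easily by construction. Without the IDR step, 22 OCRs were WT-unique. Other alternatives kept the counts within 1.5 times. Splitting tied ranks from another seed, chosen after seeing the data, gave 53 common OCRs, 13 in WT alone and 9 in Il2ra mut/mut alone. Requiring each library's own peak over a start, also chosen afterwards, left 5 members, since Fli1 was lost. No paired analysis was possible because the results come from no test.

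Peaks of 6 to 10 reads lie near the limit of calling, depth is unknown, and each genotype has 2 libraries. Why WT replicate 2 had more regions at these loci was not tested.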
